A study of Zea mays with 12 samples.

Results

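The AP2/EREBP (AP2/ERF) proteins are a large plant family of transcription factors that share the AP2 DNA-binding domain. Its ERF branch is known for binding the GCC box in the promoters of ethylene and defence genes, and its DREB branch for binding the dehydration-responsive element (DRE, also called the C-repeat). DREB factors act in large part outside the abscisic acid (ABA) pathway, beside the bZIP factors that bind ABA-responsive elements, and in Arabidopsis the DREB1 (CBF) genes are known for a fast response to cold. Described here are 5 maize genes of this family, taken by their identifiers: AP2-EREBP TF 170 (Zm00001d051239), AP2-EREBP TF 97 (Zm00001d002364), AP2-EREBP TF 154 (Zm00001d002867), AP2-EREBP TF 79 (Zm00001d031728) and DREB 1A (Zm00001d006169). They are 5 of the 38444 features in the count table. They were chosen by the study on measured values of these same libraries: the study singled them out as genes that differed between ABA-treated mop1-1 and ABA-treated wild type seedlings and not between the untreated genotypes, that have promoter homology to MOP1-dependent siRNAs, and that have predicted targets in a gene regulatory network. A further AP2-EREBP factor of the same set, TF 24 (Zm00001d002025), is not analysed here.

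The RNA came from V3 seedling shoots of 4 groups with 3 libraries each: mop1-1 mutants with 50 µM ABA for 1 h (mop1-1 ABA), mop1-1 mutants in Murashige and Skoog medium for 1 h (mop1-1 MS), wild type siblings with 50 µM ABA for 1 h (WT ABA) and wild type siblings in that medium for 1 h (WT MS). The mutants were homozygous for mop1-1, a loss of the RNA-dependent RNA polymerase that RNA-directed DNA methylation relies on in maize, the siblings were homozygous for Mop1, and all came from selfing of a heterozygote after mop1-1 had been introgressed into the inbred B73. Every seedling had been lifted from the soil and stood with its roots in the medium before the roots were removed, so the handling is shared by all 4 groups. The study calls the libraries biological replicates, and whether 1 library was 1 seedling is not given in the sources used here. In such bulk tissue, fewer cells that express a gene and less RNA per cell cannot be told apart.

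The libraries held 38295994 to 65574775 counts. As a check of the tissue, 5 photosynthesis genes that could be named summed to 2520 to 3610 counts per 1000000 (CPM) in every library, and the root nitrate transporter gene nrt2.2 had 32 counts over the 12 libraries. CPM are scaled by TMM except in that check and in the 0.58 CPM filter below, which are by library size. Of the 4 groups, WT MS was the least uniform: its replicate 1 had the lowest TMM factor (0.877), and 572 of the 26401 tested features (2.17%) stood more than 2 log2 units higher in its replicate 1 than in its replicate 3, with 440 the other way round. Only features that reached 0.58 CPM in 3 or more libraries were tested. All 5 factors passed, but DREB 1A passed only through 3 WT ABA libraries and 1 WT MS library, TF 79 reached that level in 0 of the 3 WT ABA libraries, and TF 154 in 0 of the 3 mop1-1 ABA libraries.

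DREB 1A, a factor of the cold- and drought-linked DREB1 type, had fewer counts over the mop1-1 libraries than any of the other four. It had 3, 5 and 0 counts in mop1-1 ABA, against 85, 45 and 40 counts in WT ABA. Without ABA it had 7, 20 and 18 counts in mop1-1 MS, against 70, 35 and 0 counts in WT MS. Every mop1-1 ABA library was below every WT ABA library, whereas WT MS held both a library near the highest level and a library with no count. Scaled to the libraries, the levels were 0.0493, 0.125 and 0 CPM in mop1-1 ABA and 1.55, 0.711 and 0.764 CPM in WT ABA. In MS they were 0.118, 0.316 and 0.304 CPM in mop1-1 MS and 1.52, 0.565 and 0 CPM in WT MS. If each count were an independent read, the 0 counts in WT MS replicate 3 would allow up to 0.0463 CPM (3 counts). Those in mop1-1 ABA replicate 3 would allow up to 0.0485 CPM.

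AP2-EREBP TF 154, known here only as a member of the AP2/EREBP family, had a tight range in both ABA groups. It stood at 0.230, 0.225 and 0.194 CPM in mop1-1 ABA, against 1.19, 1.25 and 1.28 CPM in WT ABA. In the medium alone it stood at 0.740, 0.980 and 0.440 CPM in mop1-1 MS, against 1.92, 0.710 and 0.339 CPM in WT MS. The mop1-1 ABA libraries were the lowest of all 12, also below every mop1-1 MS library, and the mop1-1 MS values lay inside the range of WT MS. The coefficient of variation was 8.98% in mop1-1 ABA and 3.80% in WT ABA, against 37.6% in mop1-1 MS and 83.4% in WT MS. These levels rest on 9 to 14 counts per library in mop1-1 ABA and 65 to 79 in WT ABA.

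AP2-EREBP TF 170, another member known by its family alone, stood at 1.38, 1.52 and 1.86 CPM in mop1-1 ABA, against 4.47, 4.70 and 2.96 CPM in WT ABA. In MS it stood at 1.04, 2.81 and 1.89 CPM in mop1-1 MS, against 5.03, 2.44 and 1.00 CPM in WT MS. The ABA-treated genotypes did not overlap, and the untreated ones did, since WT MS held the highest as well as the lowest of the 12 values.

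AP2-EREBP TF 97 had the most counts of the 5, 197 to 996 per library, and the smallest biological coefficient of variation in the fitted model, 26.4% against 44.3% to 97.1% for the other four. It stood at 7.79, 4.92 and 8.52 CPM in mop1-1 ABA, against 16.2, 15.7 and 11.7 CPM in WT ABA. In MS it stood at 9.75, 4.96 and 6.92 CPM in mop1-1 MS, against 11.5, 11.5 and 6.96 CPM in WT MS. All 3 WT ABA libraries were above the other 9, although the lowest of them and the highest WT MS libraries were close (11.7 and 11.5 CPM).

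AP2-EREBP TF 79 had the opposite order of genotypes under ABA. It stood at 1.36, 1.60 and 0.906 CPM in mop1-1 ABA, against 0.310, 0.49 and 0.21 CPM in WT ABA. In MS it stood at 1.48, 0.237 and 0.761 CPM in mop1-1 MS, against 0.544, 0.645 and 0.833 CPM in WT MS. The ABA-treated genotypes did not overlap, and the mop1-1 MS libraries spread over almost the whole range of the gene, with replicate 2 near the lowest WT ABA library.

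**Figure D1:**
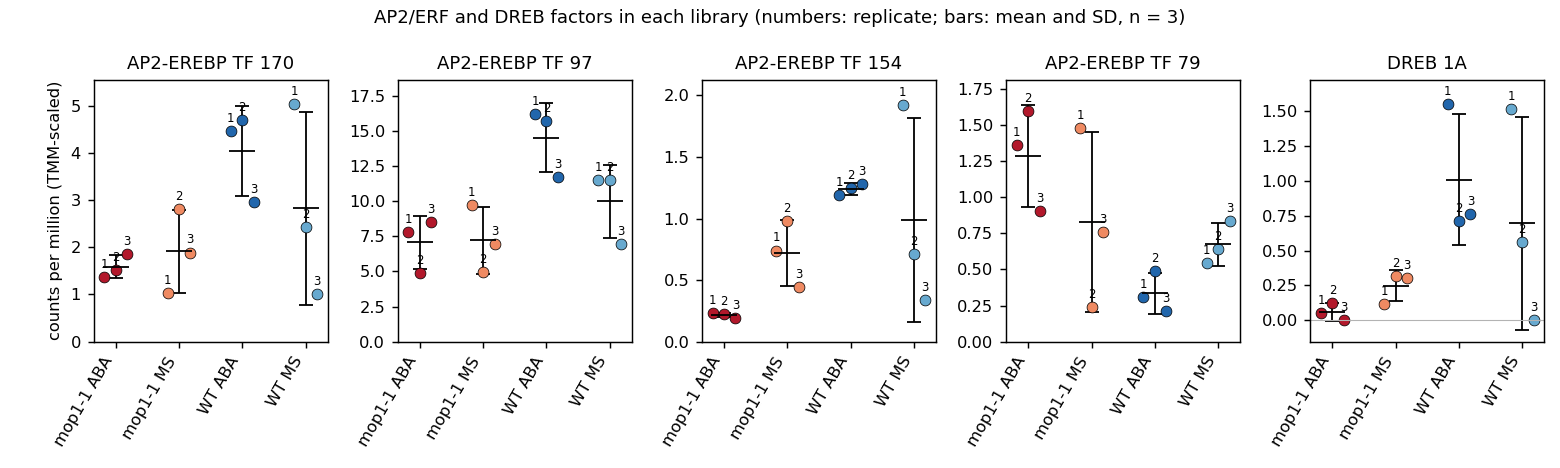
TMM-scaled CPM (linear axes) of the 5 factors in each of the 12 libraries, by group, with the replicate number at each point and the mean and SD of 3 libraries as bars. The mop1-1 ABA and WT ABA points do not overlap in any panel, with DREB 1A at 0 to 0.125 CPM against 0.711 to 1.55 CPM, while in WT MS the points of DREB 1A, TF 154 and TF 170 spread widely.

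Group C, mop1-1 ABA against WT ABA, asks how the genotypes differ once ABA is present. It is the comparison by which the study chose these genes, so its values are a description, no p-value is given for them, and the counts of calls below follow from that choice and support nothing. Directions follow the group labels of the deposited counts. DREB 1A had a log2 fold change of -4.18 (standard error 1.42), TF 154 one of -2.51 (0.64), TF 170 one of -1.35 (0.52) and TF 97 one of -1.04 (0.29). TF 79 had one of 1.92 (0.64). The summed counts of DREB 1A were 8 in mop1-1 ABA and 170 in WT ABA, a rate 20.3-fold lower in mop1-1 ABA. Its 95% exact Poisson interval, 10.1 to 47.8, leaves out variation between libraries and takes each count as an independent read. It is therefore too narrow. Among the 26401 tested features, 32 had a lower log2 fold change than DREB 1A, 110 than TF 154, 481 than TF 170 and 822 than TF 97. A feature counted as a DEG where its adjusted p did not exceed 0.05 and its log2 fold change was 0.95 or more in size. By that rule the quasi-likelihood (QL) test of edgeR called 0 of the 5 in Group C, where it called 1.19% of all tested features. The edgeR exact test called 2 of the 5 (TF 97 and TF 154) and 2.95% of all features, and DESeq2 called 3 (the same pair and DREB 1A) and 3.33%. With WT MS replicate 3 left out, the QL test called 2 of the 5 and 542 features in place of 315. The groups did not overlap for 5 of 5 factors, against 24.8% of all tested features, a count that the choice of genes fixes.

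Group D, mop1-1 MS against WT MS, asks how the genotypes differ without ABA. No library of Group C enters this contrast, but the study kept only genes that it had not called here, so the choice leans toward small differences. The lack of calls and the overlap of groups given below follow in part from that choice. They do not show that the genotypes are alike without ABA. DREB 1A averaged 0.246 ± 0.111 CPM in mop1-1 MS and 0.696 ± 0.770 CPM in WT MS (SD, n = 3), so that the log2 fold change was -1.48 with a standard error of 1.21 (adjusted p = 0.777 by the edgeR QL test). TF 170 averaged 1.92 ± 0.886 CPM in mop1-1 MS and 2.82 ± 2.04 CPM in WT MS (SD, n = 3; log2 fold change -0.55 with standard error 0.51; adjusted p = 0.817 by the edgeR QL test). TF 97 averaged 7.21 ± 2.41 CPM in mop1-1 MS and 9.997 ± 2.63 CPM in WT MS (SD, n = 3; log2 fold change -0.47 with standard error 0.29; adjusted p = 0.665 by the edgeR QL test). TF 154 averaged 0.720 ± 0.271 CPM in mop1-1 MS and 0.988 ± 0.824 CPM in WT MS (SD, n = 3; log2 fold change -0.45 with standard error 0.59; adjusted p = 0.890 by the edgeR QL test). TF 79 averaged 0.826 ± 0.624 CPM in mop1-1 MS and 0.674 ± 0.147 CPM in WT MS (SD, n = 3; log2 fold change 0.29 with standard error 0.62; adjusted p = 0.948 by the edgeR QL test). None of these differences passed the test. The groups overlapped in all 5 factors (0 of 5 were without overlap, against 13.3% of all tested features). The edgeR QL test, the exact test and DESeq2 each called 0 of the 5, against 0.905%, 2.11% and 2.41% of all features. In none of them did any of the 5 have an unadjusted p under 0.05. Among all tested features 2702, 2561 and 2941 had one, so most features did not either. The sign of 3 of the 5 log2 fold changes turned when 1 library was left out: without WT MS replicate 1 they were 0.16 for TF 170 and 0.46 for TF 154, and without mop1-1 MS replicate 1 that of TF 79 was -0.44. DREB 1A stayed between -2.07 and -0.19, with the -0.19 reached without WT MS replicate 1, and TF 97 between -0.75 and -0.27.

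Group A, mop1-1 ABA against mop1-1 MS, asks what 1 h of ABA changed in the mutant. It shares the mop1-1 ABA libraries with Group C, so no p-value is given. The counts of calls and of groups without overlap support nothing. TF 154 averaged 0.216 ± 0.0194 CPM in mop1-1 ABA and 0.720 ± 0.271 CPM in mop1-1 MS (SD, n = 3). That gave a log2 fold change of -1.73 (0.63 as standard error), and the groups did not overlap. DREB 1A had a log2 fold change of -2.16 (1.39), with summed counts of 8 in mop1-1 ABA and 45 in mop1-1 MS. TF 79 had a log2 fold change of 0.64 (0.62), TF 170 one of -0.27 (0.51) and TF 97 one of -0.02 (0.29), with overlapping groups. Single mop1-1 MS libraries moved these: without replicate 1 the log2 fold change was 1.37 for TF 79, -0.57 for TF 170 and 0.26 for TF 97, and without replicate 2 it was 0.20, 0.12 and -0.23. DREB 1A had -3.22 without mop1-1 ABA replicate 2 and -1.53 without mop1-1 ABA replicate 3. The groups did not overlap for 1 of the 5, against 9.71% of all tested features. The edgeR QL test called 0 of the 5, where it called 0% of all features (0 of 26401, with 1011 at an unadjusted p under 0.05), and the exact test and DESeq2 also called 0 of the 5, against 0.00379% and 0.0493%.

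Group B, WT ABA against WT MS, asks the same of the wild type. It shares the WT ABA libraries with Group C, so no p-value is given for the factors. The counts of calls and of groups without overlap lean on that choice and support nothing. TF 97 averaged 14.6 ± 2.45 CPM in WT ABA and 9.997 ± 2.63 CPM in WT MS (SD, n = 3), at a log2 fold change of 0.54 with a standard error of 0.29. TF 79 averaged 0.337 ± 0.142 CPM in WT ABA and 0.674 ± 0.147 CPM in WT MS (SD, n = 3), at a log2 fold change of -0.99 with a standard error of 0.63. In both genes the groups did not overlap, which makes 2 of the 5, against 11.9% of all tested features. DREB 1A, TF 170 and TF 154 had log2 fold changes of 0.55 (1.16), 0.52 (0.51) and 0.33 (0.59), with WT ABA inside or across the range of WT MS. The edgeR QL test called 0 of the 5 and 0% of all features (0 of 26401, with 1887 at an unadjusted p under 0.05), and the exact test and DESeq2 also called 0 of the 5, against 0.159% and 0.258%. Here too 1 library carried much of a value: without WT MS replicate 1 the log2 fold change was 1.23 for TF 170, 1.24 for TF 154 and 1.83 for DREB 1A, and without WT MS replicate 3 it was 0.12, -0.08 and -0.05.

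**Figure D2:**
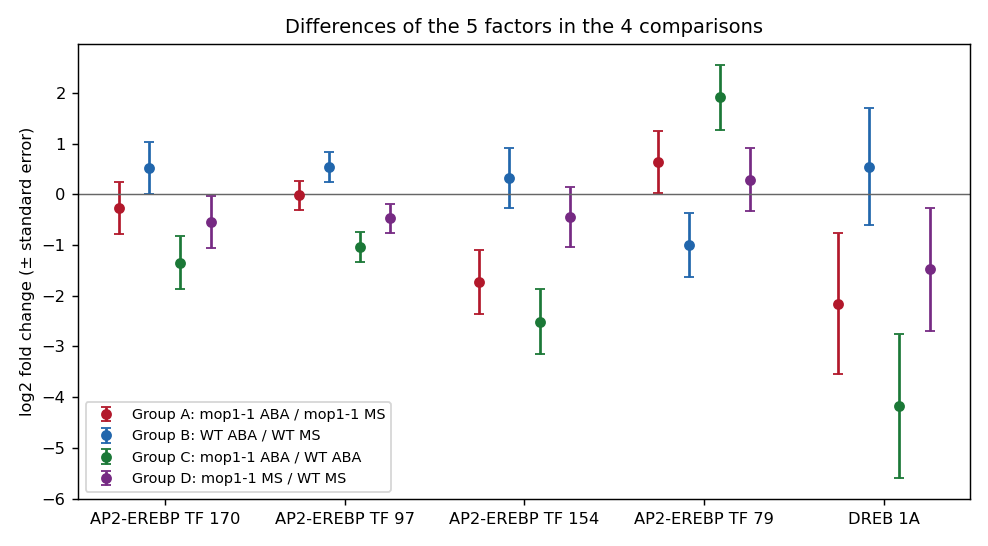
Log2 fold change with its standard error (vertical axis) of each factor (horizontal axis) in Groups A, B, C and D, from the edgeR QL model of all 12 libraries. The Group C points, by which the genes were chosen, lie farthest from 0 in each factor, at -4.18 for DREB 1A and 1.92 for TF 79.

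The ABA effect of mop1-1 less that of WT (Group A minus Group B, which equals Group C minus Group D) holds the Group C difference and is given as a description. It was -2.70 (standard error 1.81) for DREB 1A, -2.06 (0.86) for TF 154, -0.79 (0.72) for TF 170, -0.57 (0.41) for TF 97 and 1.63 (0.88) for TF 79. In 4 of the 5 the ABA value was on the low side of the MS value in mop1-1 and on the high side in WT, and in TF 79 it was the reverse. These sides held for TF 79 in every omission of a library. For the others they turned in mop1-1 (TF 170 and TF 97) or in WT (TF 154 and DREB 1A) when 1 MS library was left out. The mop1-1 value of TF 97, -0.02, was near 0 and also turned without mop1-1 ABA replicate 2 (0.18) and with scaling by library size only (0.04). Without WT MS replicate 1 the difference was -3.99 for DREB 1A, -2.96 for TF 154 and -1.51 for TF 170.

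The order of the 4 groups by mean level was the same in 4 of the 5 factors. For DREB 1A, TF 154, TF 170 and TF 97 it ran, from low to high, mop1-1 ABA, mop1-1 MS, WT MS and WT ABA, and for TF 79 it ran WT ABA, WT MS, mop1-1 MS and mop1-1 ABA. Neighbours in this order mostly overlapped. The exceptions were WT ABA and WT MS for TF 97, mop1-1 ABA and mop1-1 MS for TF 154, and WT ABA and WT MS for TF 79. The highest and the lowest group in the order are the ones by which the genes were chosen, so this order is no support for a shared pattern.

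Within groups the factors did not spread alike. In WT MS the range of log2 CPM over the 3 libraries was 5.48 for DREB 1A, 2.38 for TF 154 and 2.29 for TF 170, wider than in 99.6%, 95.3% and 94.8% of tested features, against 0.72 for TF 97 and 0.58 for TF 79 and a median of 0.53 over all features. In each of the first 3 genes replicate 1 was the highest WT MS library and replicate 3 the lowest. For DREB 1A replicate 3 had 0 counts, so its log2 CPM was set by the prior count of 2. The range of 5.48 and its rank would change with another prior count. In WT ABA the ranges were 1.09 for DREB 1A, 0.11 for TF 154 and 0.66 for TF 170, with a median of 0.39 over all features. TF 79 had its widest range, 2.48, in mop1-1 MS.

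**Figure D3:**
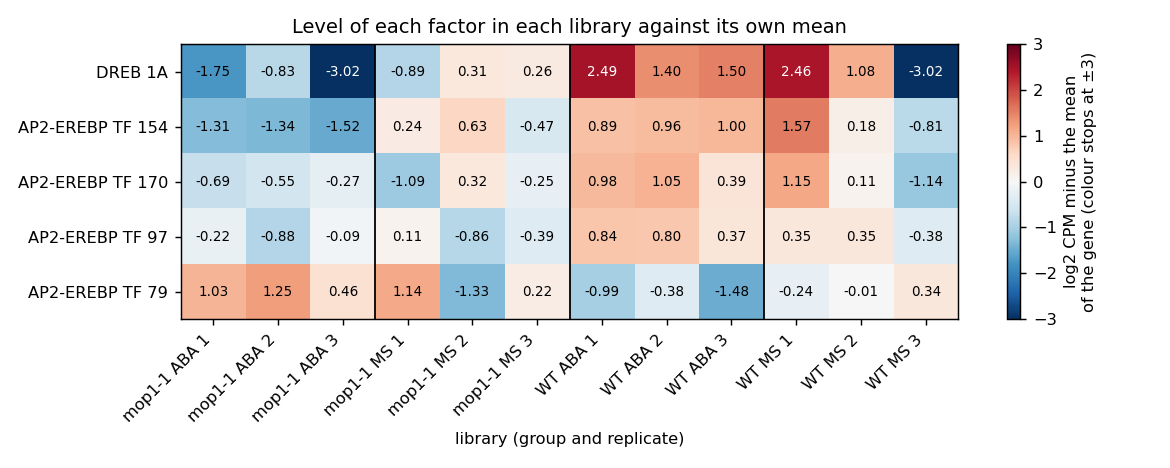
Log2 CPM of each factor (rows) in each library (columns, by group and replicate) minus the mean of that gene over the 12 libraries, with colour from -3 to 3. WT MS replicate 1 is above the mean of DREB 1A, TF 154 and TF 170 by 2.46, 1.57 and 1.15, and WT MS replicate 3 is below it, at -3.02, -0.81 and -1.14, while TF 79 runs opposite to them in the ABA libraries. The -3.02 of DREB 1A rests on 0 counts and is set by the prior count.

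Over the 12 libraries, log2 CPM of DREB 1A correlated with that of TF 154 at r = 0.87 (rho = 0.85) and with that of TF 170 at r = 0.85 (rho = 0.90), and TF 170 with TF 154 at r = 0.77 (rho = 0.78). These values include the group differences by which the genes were chosen, and the libraries share depth and handling across genes. After the mean of each group was taken away, the same pairs had r = 0.76, 0.79 and 0.76 over 12 libraries, and with the WT MS libraries also left out they had r = 0.03, 0.30 and 0.12 over 9 libraries. The shared variation of these 3 pairs within groups therefore rested on WT MS. In the pairs with DREB 1A it leaned on WT MS replicate 3. There DREB 1A had 0 counts and deviated by -3.19 from its group mean, at a level set by the prior count. TF 79 had a negative r with each of the others over the 12 libraries, between -0.36 with TF 97 and -0.72 with both TF 170 and TF 154. After the group means were taken away, its r was 0.39 with TF 97, -0.53 with TF 170, -0.33 with TF 154 and -0.24 with DREB 1A.

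The annotated genes whose log2 CPM was most like that of each factor over the 12 libraries were sought among 19499 tested genes. For DREB 1A they were Zm00001d022492 (Pearson r = 0.970), Zm00001d029529 (0.960) and Zm00001d028389 (0.954), and 38 genes had an r above 0.9. Zm00001d022492 averaged 35.3 ± 5.76 CPM in mop1-1 ABA, 70.9 ± 27.3 in mop1-1 MS, 194 ± 25.7 in WT ABA and 164 ± 147 in WT MS (SD, n = 3), and so had the wide WT MS group as well. For TF 170 they were Zm00001d010515 (0.969), Zm00001d000229 (0.95) and Zm00001d028992 (0.949), with 31 genes above 0.9. For TF 154 they were Zm00001d048962 (0.947), Zm00001d005966 (0.940) and Zm00001d046204 (0.930), with 25 above 0.9. Zm00001d046204 stood at 1.74 to 2.73 CPM in mop1-1 ABA, 12.2 to 14.8 in mop1-1 MS, 68.2 to 89.3 in WT ABA and 3.80 to 224 in WT MS. For TF 97 they were Zm00001d003180 (0.937), Zm00001d046761 (0.910) and Zm00001d035455 (0.904), the only 3 above 0.9, and for TF 79 Zm00001d042437 (0.912), Zm00001d037260 (0.894) and Zm00001d000843 (0.886), of which 1 was above 0.9. DREB 1A and TF 170 shared 5 of these genes (13.2% and 16.1% of their sets), and DREB 1A and TF 154 shared 4 (10.5% and 16.0%). None of these most-like genes could be given a name. The r values and the sets above 0.9 include the group differences by which the factors were chosen and the spread of WT MS. They are given as likeness alone.

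Other genes of the family were taken by their RefSeq names. RefSeq entries could be joined only through older identifiers in the study's supplement, to 2016 of the 28534 annotated genes, 668 of them with a name. That supplement lists genes that the study drew in part from these same libraries. The list is therefore not independent of these data, and its counts and medians support nothing. The other family genes found in this way were 5, of which 4 could be tested and EREB139 (Zm00001d018158) could not. Called by the edgeR QL test were 0 of the 4 in each of Groups A, B, C and D, and 0 also by the exact test and DESeq2, beside the shares of all features given above for each Group. In Group C, mop1-1 ABA did not overlap WT ABA in 3 of the 4 (gl15, EREB93 and EREB98, all lower). Of all tested features, 24.8% did not overlap in either direction and 12.4% were lower without overlap. At an unadjusted p under 0.05 (edgeR QL test) was 1 of the 4 in Group C, against 4219 of the 26401 features, and 0 of the 4 in the other Groups. That gene was gl15 (Glossy15, EREB55, Zm00001d046621), an AP2-type factor known for keeping leaves juvenile and as a target of the microRNA miR172. It stood at 7.03, 7.59 and 7.31 CPM in mop1-1 ABA, against 9.26, 13.5 and 11 CPM in WT ABA, without overlap, at a log2 fold change of -0.63 with standard error 0.25 (adjusted p = 0.251 by the edgeR QL test). In MS it averaged 6.79 ± 2.39 CPM in mop1-1 MS and 7.83 ± 1.54 CPM in WT MS (SD, n = 3; log2 fold change -0.21, adjusted p = 0.879, edgeR QL test).

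EREB93 (Zm00001d010676) averaged 0.457 ± 0.137 CPM in mop1-1 ABA and 0.844 ± 0.103 CPM in WT ABA (SD, n = 3), at a log2 fold change of -0.88 (adjusted p = 0.577 by the edgeR QL test). It averaged 0.40 ± 0.330 CPM in mop1-1 MS and 0.814 ± 0.220 CPM in WT MS (log2 fold change -1.02, adjusted p = 0.716, edgeR QL test). EREB98 (Zm00001d053859) averaged 24.1 ± 1.79 CPM in mop1-1 ABA and 27.7 ± 0.836 CPM in WT ABA (SD, n = 3), at a log2 fold change of -0.20 (adjusted p = 0.485 by the edgeR QL test). ERF1 (Zm00001d009103), named here after its values were seen, had log2 fold changes of 0.41 in Group C and 0.14 in Group D. The median log2 fold change of the 4 genes was -0.42 in Group C and -0.15 in Group D, against 0.015 and -0.005 over all tested features, and 0.06 in both Groups A and B. Of the genes of the kind that DREB factors are known to control, only dhn2 (Zm00001d051420), a dehydrin that is thought to protect cells as they lose water, could be joined to a name. It averaged 411 ± 82.1 CPM in mop1-1 ABA and 456 ± 75.3 CPM in WT ABA (SD, n = 3). Its log2 fold change lay between -0.29 and -0.15 in the 4 Groups, and it was not called in any of them (edgeR QL test, exact test and DESeq2).

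DREB 1A, TF 154 and TF 97 carry identifiers of chromosome 2, on which mop1 lies. Counted in protein-coding genes of the RefSeq order of the assembly Zm-B73-REFERENCE-NAM-5.0, TF 97 was 745 genes from mop1. TF 154 lay between placed genes that were 329 and 373 genes from mop1, and DREB 1A between placed genes that were 1669 and 1718 genes from it. TF 79 matched a RefSeq gene on chromosome 1, and TF 170 was not matched. The part that linkage to mop1 has in the values of these genes was not tested.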

How the data were processed

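The authors deposited 1 table of whole-number counts, not normalized, with a column for each of the 12 libraries. According to the study's methods and labels, read quality was assessed with fastp 0.21.0, adapters were trimmed, HISAT2 2.2.1 placed them on version 4 of the B73 genome, and StringTie 2.1.4 built and counted the transcripts. Such counts derive from coverage, and the library totals are larger than the read numbers that the study lists. Counts are therefore not independent reads, and the Poisson interval is too narrow even for counting error. How reads shared by near-identical family members or by antisense genes were assigned is not given in the sources used here.

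Features with at least 0.58 CPM by library size in at least 3 libraries (26401) were tested. After TMM scaling they entered the quasi-likelihood (QL) fit of edgeR 4.0.16 in R 4.3.3, with all 12 libraries in 1 model of 4 group means. P-values were adjusted by Benjamini and Hochberg over all tested features. Standard errors were derived from the log2 fold change and its F statistic. Log2 CPM used a prior count of 2. The tests were tested on simulated data. DESeq2 1.42.0 and the exact test of edgeR were alternatives, with other scalings and filters, the 6 libraries of a comparison, annotated genes alone, a replicate block and the omission of each library.

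The members and lists were chosen with earlier results of these data known. Named were the 5 factors, the list genes called in any Group or among the 2 smallest p-values of a Group, and the 3 genes most like each factor. The gap between WT MS replicates, the spread within groups and the correlations without WT MS were computed after the data were seen. Gene names came from RefSeq through older identifiers in a supplementary workbook. No sequence was read. The mop1 transcript is not analysed here.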

Additional observations from a re-analysis of the deposited data

How the results depend on the processing

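Of 515 log2 fold changes of the 5 factors under the alternatives, 508 stayed within the within-group SD of the main value or, in Group D, kept sign and call, 4 moved further (TF 170 and TF 154 without WT MS replicate 1, in Group B and in Group A minus Group B) and 3 changed sign in Group D. The 3 were TF 170 (0.16) and TF 154 (0.46) without WT MS replicate 1, and TF 79 (-0.44) without mop1-1 MS replicate 1. Over all comparisons, 10 values changed sign. Those outside Group D were of TF 170 and TF 97 in Group A and of TF 154 and DREB 1A in Group B, all within the SD. That SD was 1.59 log2 units for DREB 1A, so large shifts of this gene stayed within it. Over the omission of each library, Group D ran from -0.96 to 0.16 for TF 170, -0.86 to 0.46 for TF 154 and -0.44 to 0.73 for TF 79. In Group D the adjusted p over all alternatives was 0.385 to 0.982 for DREB 1A, 0.408 to 0.959 for TF 170, 0.383 to 0.906 for TF 97, 0.599 to 0.978 for TF 154 and 0.803 to 0.999 for TF 79 (edgeR QL test, exact test and DESeq2). The count of the 5 called in Group C was 2 by the exact test, 3 by DESeq2 and 2 with the 6 libraries of the comparison, and 0 to 2 without 1 library, with the 2 reached without WT MS replicate 3. It stayed 0 in Groups A, B and D in every fit.

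The counts over all features were 0, 0, 315 and 239 in Groups A, B, C and D. They were 1, 42, 780 and 557 by the exact test and 13, 68, 878 and 636 by DESeq2. With the 6 libraries of a comparison they were 1 in Group B, 666 in C and 145 in D, and with annotated genes alone 137 in C and 85 in D. Without 1 library they were 0 to 2 in Group A, 0 to 7 in B, 147 to 542 in C and 171 to 455 in D, with 147 reached without WT ABA replicate 2 and 542 and 455 without WT MS replicate 3. The cause was not tested. Libraries with the same replicate number did not deviate together (r of -0.162 to 0.088 in 18 pairs, against -0.207 to 0.164 in 36 others), and with a replicate block 245 features were called in Group C, 188 in D and 0 of the 5 factors in any Group. By Spearman's rho, 1 of the 3 genes most like TF 79 stayed among the first 3. Counting limits DREB 1A most, at 0 to 20 counts per mop1-1 library.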
